A study of Bos taurus with 6 samples.

Results

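The 10 genes described here encode the condensin subunits NCAPD2, NCAPD3, NCAPG, NCAPG2, NCAPH, NCAPH2, SMC2 and SMC4 and the cohesin subunits SMC1A and SMC3. They were chosen by gene symbol, and they occupied 11 of the 32183 rows of the expression tables because NCAPD2 had 2 rows, which are reported apart. These genes and the gene lists below were chosen with earlier results of these data known. The shares of them that changed are therefore descriptions and not independent support. RNA was sequenced from rumen epithelial primary cells (REPC), which are cells grown from the lining of the rumen of 1 Holstein bull calf aged 2 weeks and fed milk replacer only. The treated group was 3 cultures given 5 mM butyrate for 24 h, and the control group was 3 cultures labelled only as control. No gene was edited in either group. All cultures came from that single animal, so the p-values below measure the spread between cultures and not between calves. Butyrate is a short-chain fatty acid of rumen fermentation that inhibits histone deacetylases, and the comparison addresses which genes change expression on exposure to it.

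Condensin and cohesin are ring-shaped protein complexes that hold loops of DNA. Each is built on a pair of SMC ATPases, and another protein, the kleisin, closes the ring and recruits subunits with HEAT repeats. Condensin folds chromosomes into compact rods in mitosis. Condensin I and condensin II share SMC2 and SMC4 and differ in the kleisin and the HEAT subunits. Condensin I reaches the chromosomes after the nuclear envelope breaks down, whereas condensin II is nuclear throughout the cell cycle. Cohesin, built on SMC1A and SMC3, holds sister chromatids together from S phase until anaphase, and it also forms the loops of interphase chromosomes that end at CTCF sites. Condensin subunits are known as genes of dividing cells, while cohesin is also used by cells that do not divide.

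Expression is given as the deposited FPKM, in which the fragments of a gene are divided by the length of its transcript and by the fragments of the culture, and positions are on the cattle build UMD3.1. The sum of FPKM was between 678035 and 681912 in control and between 619401 and 629037 after butyrate, and rescaling each culture to the same sum raised the median log2 fold change of all tested genes by 0.12, from 0.10 to 0.23. With quantile normalization this median was -0.05, and of all tested genes 4679 were lower and 4284 higher after butyrate at the Benjamini-Hochberg threshold of limma, where the values as deposited gave 4091 lower and 5144 higher. Of 8 epithelial markers, 6 were higher after butyrate, KRT5 was lower (log2 fold change -0.17), and CDH1 lay between 47.3 and 51.4 FPKM in all 6 cultures. The summed epithelial markers ranged from 2417 to 2527 FPKM in control and from 5041 to 5123 after butyrate. All 7 fibroblast markers were also higher after butyrate, with sums of 4332 to 4491 and 6281 to 6628 FPKM, VIM and COL1A1 being the most abundant. In control, LUM was between 0.0482 and 0.346 FPKM and PDGFRA between 0.229 and 0.415 FPKM, so both were barely detected there. Of 4 smooth muscle markers 3 were lower, CNN1 by the most FPKM, DES was higher, and their sum was between 1222 and 1258 FPKM in control and between 560.3 and 650.7 after butyrate. The summed endothelial markers were between 1.95 and 2.07 FPKM in control and between 6.48 and 8.43 after butyrate, PECAM1 and VWF being higher and CDH5 being at 0 in every culture. The summed immune markers were between 5.12 and 7.15 FPKM in control and between 7.23 and 9.38 after butyrate, with CD68 higher and PTPRC at 0 in every culture. The part of these marker levels in the results below was not tested. In such bulk samples, fewer cells of a type and less RNA per cell cannot be told apart.

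Differences were tested with limma on log2(FPKM + 0.1) over the 15813 genes whose FPKM averaged 0.1 or more, a filter that all 11 rows passed. The shorter NCAPD2 row, called the short entry, passed it through the control cultures alone, as it was listed at 0 FPKM in all 3 butyrate cultures. A gene is said to have fallen or risen where its Benjamini-Hochberg adjusted p was under 0.05, and it is called a differentially expressed gene (DEG) where its Bonferroni-corrected p was under 0.05 and its log2 fold change was beyond 2. The DEG limits follow the methods of the study, but the study tested with Cufflinks and not limma, so the calls here are not its own. Of the 11 rows, 10 fell and 0 rose, against 25.9% of all tested genes that fell and 32.5% that rose. The row that did not pass was SMC3, with an unadjusted p of 0.832 in limma. Of the 11 rows, 7 were downregulated DEGs, against 1.51% of all tested genes, and 0 were upregulated DEGs, against 2.46%. In 10 rows every butyrate culture lay below every control culture, which held for 28.9% of all tested genes. The short NCAPD2 entry is counted among the rows that fell, the downregulated DEGs and the rows without overlap. It was measured in control only and is not taken as support for these counts. The DEG calls of NCAPD3 and SMC1A depended on the cultures included, as given below. The median log2 fold change was -2.61 over the 10 rows without the short NCAPD2 entry, beside 0.10 over all tested genes. FPKM fold changes on this scale understate the change of genes whose expression after butyrate is low.

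**Figure D1:**
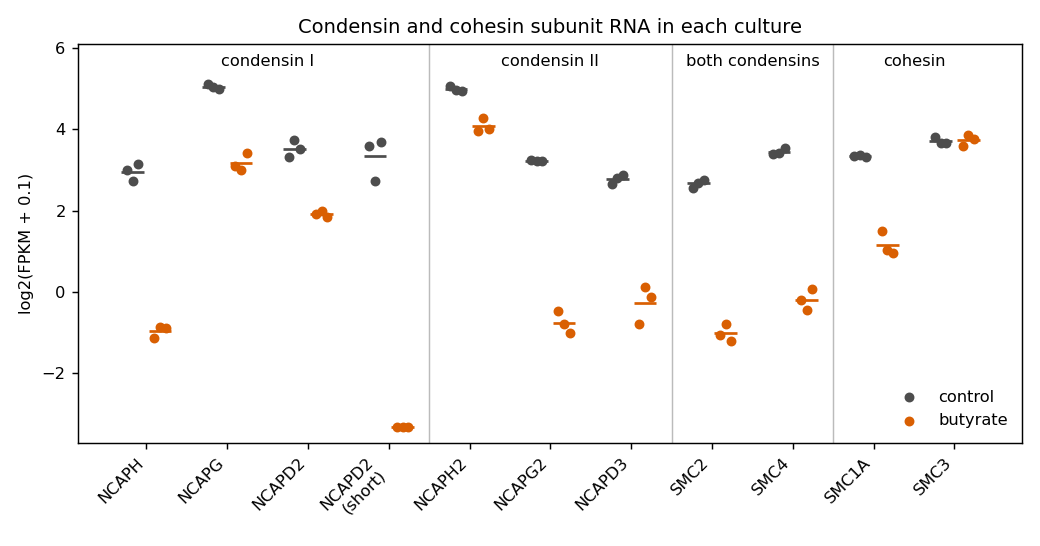
The vertical axis is log2(FPKM + 0.1) and each point is 1 culture, with 3 control cultures in grey and 3 butyrate cultures in orange for each subunit, and horizontal bars at the group means. The orange points lie below the grey points for every row but SMC3, whose groups overlap, and the short NCAPD2 entry was listed at 0 FPKM in all 3 butyrate cultures.

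SMC2 and SMC4, the ATPases common to both condensins, both fell to a few percent of the control level after butyrate. SMC2, on chromosome 8 from 95364283 to 95413346, was at 5.84, 6.27 and 6.71 FPKM in control replicates 1 to 3 and at 0.381, 0.481 and 0.333 in butyrate replicates 1 to 3. Its mean went from 6.27 ± 0.434 (SD, n = 3) to 0.398 ± 0.0757 (SD, n = 3), which left 6.35% of the control level. The groups did not overlap, and limma gave a log2 fold change of -3.68 (SE 0.20, Bonferroni-adjusted p = 0.000595). SMC4, on chromosome 1 from 107894732 to 107928499, was at 10.4, 10.6 and 11.6 FPKM in control and at 0.769, 0.639 and 0.949 after butyrate. It retained 7.24% of the control mean, and limma gave it a log2 fold change of -3.64 (SE 0.17, Bonferroni-adjusted p = 0.000222). The SMC4 gene also hosts MIR15B and MIR16B, which were listed at 0 FPKM in all 6 cultures. These rows span only 98 and 93 bases, so the 0 values are not taken as absence of the microRNAs.

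The subunits particular to condensin I fell to different degrees. NCAPH, the kleisin of condensin I, lies on chromosome 11 from 2401596 to 2435808 and was at 7.86, 6.55 and 8.74 FPKM in control replicates 1 to 3. It was at 0.360, 0.447 and 0.444 FPKM in butyrate replicates 1 to 3, so the highest treated culture was far below the lowest control culture. NCAPH retained 5.41% of its control mean, a log2 fold change of -3.91 (SE 0.19, Bonferroni-adjusted p = 0.000302, limma).

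NCAPG, a HEAT subunit of condensin I, lies on chromosome 6 from 38711560 to 38812056 and had the highest control level of the 10 genes. It was at 34.7, 32.6 and 31.6 FPKM in control and at 8.54, 7.87 and 10.6 after butyrate, which is 27.3% of the control mean. Its log2 fold change of -1.87 (SE 0.11) passed Bonferroni correction in limma (adjusted p = 0.00183, and 0.217 without butyrate replicate 1) but not the fold limit for a DEG. The NCAPG row overlaps FAM184B over 23621 bases and encloses DCAF16. FAM184B stayed at or below 0.574 FPKM and DCAF16 at or below 4.09 FPKM in every culture, and reads of overlapping genes may be shared between their rows.

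NCAPD2, the other HEAT subunit of condensin I, was represented by a long row on chromosome 5 from 104244558 to 104263026 and a short one of 989 bases from 104271663 to 104272651, separated by 8636 bases. RefSeq annotation of the later assembly ARS-UCD2.0 has 1 NCAPD2 gene, which spans 24833 bases. The long row was at 9.84, 13.3 and 11.4 FPKM in control and at 3.71, 3.90 and 3.51 after butyrate, and it retained 32.2% of the control mean. The fold limit for a DEG was not reached at a log2 fold change of -1.60 (SE 0.13, Benjamini-Hochberg adjusted p = 1.3e-05, limma). The short row was at 12.03, 6.54 and 12.8 FPKM in control and was listed at 0 in all 3 butyrate cultures. The control values of the short row rest on about 8, 4 and 8 effective fragments, which is the count whose Poisson spread would give the deposited confidence bounds, and the deposited lower bound was 0 in control replicate 2, so that its call as a DEG is uncertain and no fold is given. With the FPKM of both rows added up in each culture, the log2 fold change of NCAPD2 was -2.53. The long row rests on between 258.7 and 315.2 effective fragments in a control culture. As FPKM is divided by length, the short row has a weight in this sum similar to that of the long row. The value of the sum is therefore uncertain as well, and no call is taken from it.

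The subunits particular to condensin II also fell to different degrees, with log2 fold changes from -3.98 to -0.90. NCAPG2, a HEAT subunit, lies on chromosome 4 from 120133801 to 120207828 and was at 9.39, 9.24 and 9.20 FPKM in control. It was at 0.627, 0.477 and 0.397 FPKM after butyrate, or 5.40% of the control mean, and its log2 fold change of -3.98 was the lowest of the 10 rows without the short NCAPD2 entry (SE 0.19, limma, Bonferroni-adjusted p = 0.000223). NCAPD3, the other HEAT subunit, lies on chromosome 15 from 84777784 to 84839004. It was at 6.16, 6.86 and 7.22 FPKM in control and at 0.477, 0.991 and 0.816 after butyrate.

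NCAPD3 retained 11.3% of its control mean, and its treated cultures spread further apart (SD 0.261 FPKM) than those of NCAPH (0.0492) or SMC2 (0.0757). In limma it changed by -3.04 on the log2 scale (SE 0.25, Bonferroni-adjusted p = 0.0188). The call of NCAPD3 as a DEG was lost whichever culture was left out, with Bonferroni-adjusted p values from limma of 0.0703 or above, while it remained past the Benjamini-Hochberg threshold in all 6 of these fits.

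NCAPH2, the kleisin of condensin II, kept more of its RNA than the other condensin subunits. It lies on chromosome 5 from 120022235 to 120032069 and was at 33.3, 31.0 and 30.9 FPKM in control and at 15.6, 19.4 and 16.1 after butyrate. The groups did not overlap, and 53.6% of the control mean was left. The log2 fold change from limma was -0.90 (SE 0.09, Benjamini-Hochberg adjusted p = 5.1e-05), and its 95% confidence interval from -1.11 to -0.69 lay above those of all other condensin subunits.

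The cohesin ATPases parted from each other. SMC1A lies on chromosome X from 96218220 to 96252806 and was at 10.1, 10.2 and 9.83 FPKM in control and at 2.71, 1.96 and 1.84 after butyrate, or 21.6% of the control mean. This is a log2 fold change of -2.18 (SE 0.16, Bonferroni-adjusted p = 0.0084, limma). SMC1A was a DEG without butyrate replicate 1 (limma, Bonferroni-adjusted p = 0.0189) and lost that call when any other culture was left out, but it fell by the Benjamini-Hochberg threshold in all 6 fits.

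SMC3, on chromosome 26 from 31387437 to 31425087, was at 13.98, 12.5 and 12.7 FPKM in control and at 11.9, 14.5 and 13.5 after butyrate. The treated cultures lay on both sides of the control cultures, with group means of 13.1 ± 0.810 FPKM for control and 13.3 ± 1.31 for butyrate (SD, n = 3 each). SMC3 did not pass the test at a log2 fold change of 0.02, for which limma gave a 95% confidence interval from -0.21 to 0.25 (Benjamini-Hochberg adjusted p = 0.867). The sign of this value turned negative without control replicate 2 (-0.0087) and without butyrate replicate 2 (-0.042), and it was 0.14 after rescaling to the same sum.

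**Figure D2:**
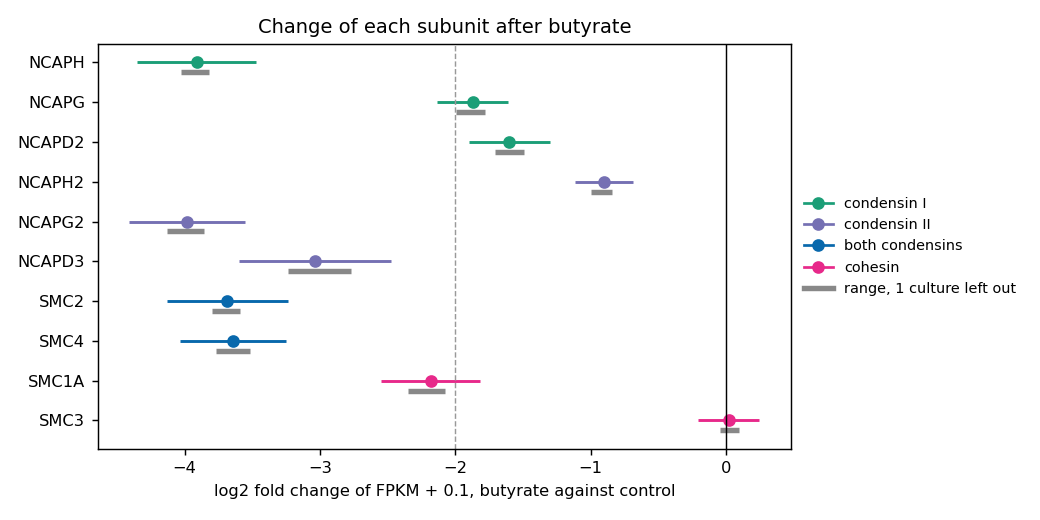
Points are log2 fold changes on FPKM + 0.1 with 95% confidence intervals from limma for the 10 rows without the short NCAPD2 entry, coloured by complex, and grey bars give the range when each culture was left out in turn. The dashed line marks the fold limit of -2 for a DEG, which NCAPG, NCAPD2 and NCAPH2 did not reach, and the interval of SMC3 includes 0.

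The deposited confidence bounds give a second view of these values. In 9 of the 10 rows without the short NCAPD2 entry, the lowest lower bound of the control cultures was above the highest upper bound of the butyrate cultures, SMC3 being the exception. The share of all tested genes whose bounds are apart in this way was not computed, so this count has no background to be read against. For NCAPH2, the subunit that kept the most RNA of those that fell, these bounds were 27.5 and 21.8 FPKM, and for SMC2 they were 5.29 and 0.657 FPKM. The bounds imply between 128.4 and 849.4 effective fragments for these rows in a control culture. After butyrate they imply as few as 6.53 for NCAPH and between 437.2 and 512.5 for SMC3. The levels that NCAPH, NCAPG2, NCAPD3 and SMC2 kept after butyrate each rest on at most 31.2 effective fragments in a culture.

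The mean levels of the 10 rows without the short NCAPD2 entry, per length, spanned 5.26 fold in the control cultures and 42.7 fold in the butyrate cultures. In control the order from highest to lowest was NCAPG, NCAPH2, SMC3, NCAPD2, SMC4, SMC1A, NCAPG2, NCAPH, NCAPD3 and SMC2. The ranges of neighbours overlapped between NCAPG and NCAPH2, along SMC3, NCAPD2 and SMC4, and along NCAPH, NCAPD3 and SMC2. After butyrate the order was NCAPH2, SMC3, NCAPG, NCAPD2 and SMC1A, each above the range of the next, followed by SMC4, NCAPD3, NCAPG2, NCAPH and SMC2, whose neighbouring ranges overlapped and whose means were between 0.398 and 0.786 FPKM.

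Counterpart subunits of different complexes were then compared through their ratio within each culture, given below as the plain ratio of FPKM and tested as the log2 ratio of FPKM + 0.1, which but for the added 0.1 does not depend on how a culture is scaled. All 6 such ratios set out for comparison separated the groups without overlap. The share of other gene pairs whose ratio does so was not computed. The 6 include the short NCAPD2 row to NCAPD3, whose numerator after butyrate was only the added 0.1, so its separation is not taken as support. Among single tested genes, all butyrate cultures lay below all control cultures in 28.9% and above them in 36.1%. With 3 cultures against 3, the exact permutation test over 20 divisions of the cultures cannot give a two-sided p below 0.1, and each of the 6 had this p, also after Benjamini-Hochberg adjustment over the 6. For the kleisins, NCAPH was at 0.236, 0.211 and 0.283 of the FPKM of NCAPH2 in control replicates 1 to 3 and at 0.0232, 0.0231 and 0.0276 in butyrate replicates 1 to 3. The mean log2 ratio after butyrate minus that in control was -3.01.

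The ratios of the HEAT subunits differed in the opposite direction. NCAPG was between 3.43 and 3.70 times NCAPG2 in control and between 13.6 and 26.7 times after butyrate, a difference of 2.11 in the log2 ratio. The long NCAPD2 row was between 1.58 and 1.93 times NCAPD3 in control and between 3.94 and 7.79 times after butyrate, a difference of 1.44. With the short NCAPD2 row, which was listed at 0 after butyrate, the direction was the reverse. Relative to its condensin II counterpart, condensin I thus kept less RNA of the kleisin and more of both HEAT subunits, when the long NCAPD2 row is used.

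Against cohesin, SMC2 was between 0.418 and 0.529 of SMC3 in control and between 0.0247 and 0.0333 after butyrate, a difference of -3.71 in the log2 ratio. SMC4 was between 1.03 and 1.18 times SMC1A in control and between 0.284 and 0.515 times after butyrate, a difference of -1.46. In all 3 butyrate cultures both condensin ATPases were thus lower relative to their cohesin counterpart than in any control culture. The size of these differences depends on the pseudocount. With a pseudocount of 1 the difference was -1.75 for NCAPH to NCAPH2, 1.01 for NCAPG to NCAPG2, 0.74 for the long NCAPD2 row to NCAPD3, -2.40 for SMC2 to SMC3 and -0.92 for SMC4 to SMC1A, and each kept its direction.

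A further 4 ratios, between partners in 1 complex, were added after the values had been seen. SMC1A was between 0.724 and 0.820 of SMC3 in control and between 0.135 and 0.228 after butyrate, and the groups did not overlap (exact permutation test, two-sided, p = 0.1). SMC2 was between 0.562 and 0.592 of SMC4 in control and between 0.351 and 0.753 after butyrate, with overlapping groups (exact permutation test, two-sided, p = 0.7). The difference of this log2 ratio was -0.044, which became 0.18 without butyrate replicate 3 and 0.35 with a pseudocount of 1. NCAPG was between 3.61 and 4.98 times NCAPH in control and between 17.6 and 23.9 times after butyrate. NCAPG2 was between 0.282 and 0.298 of NCAPH2 in control and between 0.0246 and 0.0403 after butyrate, and neither of these ratios overlapped between the groups (exact permutation test, two-sided, p = 0.1 for each). Their differences, 2.04 and -3.08, became 0.84 and -1.91 with a pseudocount of 1.

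**Figure D3:**
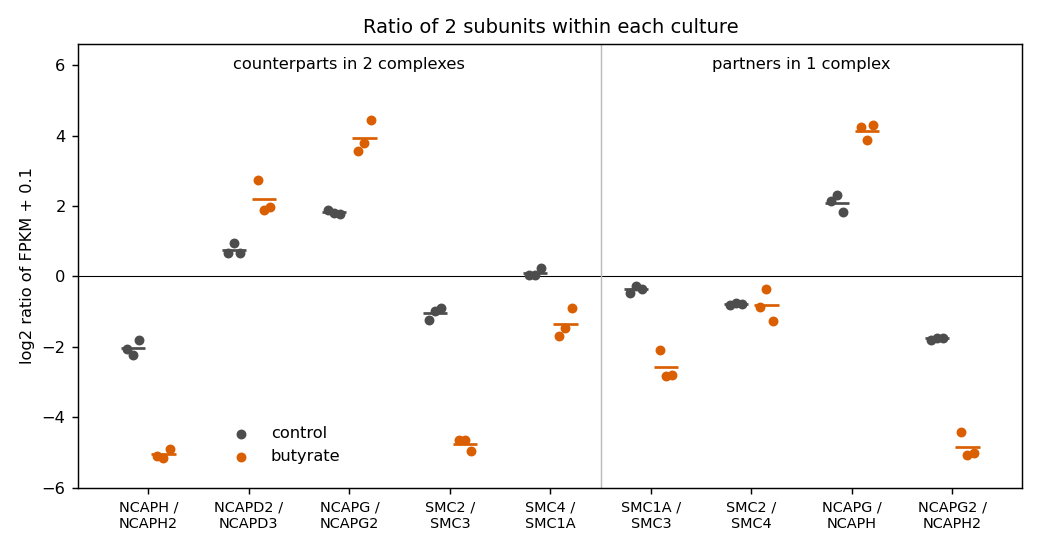
Each point is the log2 ratio of FPKM + 0.1 of 2 subunits in 1 culture, with 3 control cultures in grey, 3 butyrate cultures in orange and bars at the group means, for counterparts in different complexes on the left and partners in the same complex on the right. The groups are apart for every ratio shown except SMC2 to SMC4, and the butyrate points of the kleisin ratio NCAPH to NCAPH2 lie below the control points while those of NCAPG to NCAPG2 and of the long NCAPD2 row to NCAPD3 lie above.

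The remaining cohesin subunits and the proteins that load, release, acetylate and cleave cohesin formed a list of 21 genes, of which 19 were tested. Among these, 12 fell and 2 rose, which is 63.2% and 10.5% of the list against 25.9% and 32.5% of all tested genes, and 3 (15.8%) were downregulated DEGs against 1.51% of all tested genes. The median log2 fold change was -0.48, beside 0.10 over all tested genes. RAD21, the kleisin of cohesin, fell from 27.0 ± 0.926 to 15.8 ± 1.13 FPKM (SD, n = 3 each), with a log2 fold change of -0.77 (limma, Benjamini-Hochberg adjusted p = 4.2e-05). STAG1, a HEAT subunit of cohesin, had a log2 fold change of -0.93 and fell, while its alternative STAG2 went from 2.49 ± 0.349 to 2.17 ± 0.299 FPKM (SD, n = 3 each) and did not pass the test (limma, Benjamini-Hochberg adjusted p = 0.404). CTCF, which stops cohesin on DNA, fell with a log2 fold change of -0.75.

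The 3 DEGs of this list act on sister chromatids around DNA replication and anaphase. PTTG1, or securin, which holds separase inactive until anaphase, fell from 119.3 ± 4.45 to 3.76 ± 1.04 FPKM (SD, n = 3 each), the largest fall of the list at a log2 fold change of -4.98. A second row named PTTG1 stayed at or below 0.213 FPKM. ESCO2, the acetyltransferase that acts on SMC3 in S phase, and ESPL1, or separase, had log2 fold changes of -4.11 and -3.82. SGO1 and CDCA5, which protect cohesion, had log2 fold changes of -4.34 and -3.67 and fell without being DEGs.

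The loading and release factors of cohesin had smaller log2 fold changes. NIPBL and MAU2 together load cohesin onto DNA, and they had log2 fold changes of -0.48 and 0.46 in opposite directions, both past the threshold (limma, Benjamini-Hochberg adjusted p = 0.0447 and 0.0113), although NIPBL did not pass after rescaling to the same sum (adjusted p = 0.109). WAPL, which releases cohesin, was at 10.5 ± 1.36 FPKM in control and 10.6 ± 1.59 after butyrate (SD, n = 3 each; limma, Benjamini-Hochberg adjusted p = 0.999). PDS5A fell with a log2 fold change of -0.43 (limma, Benjamini-Hochberg adjusted p = 0.0157), but did not pass after rescaling to the same sum (adjusted p = 0.0643). PDS5B, at 0.19, did not pass the test (limma, Benjamini-Hochberg adjusted p = 0.277). ESCO1, which acetylates SMC3 outside S phase, rose with a log2 fold change of 0.42 (limma, Benjamini-Hochberg adjusted p = 0.0338), a call that quantile normalization removed (adjusted p = 0.133). The largest positive value was that of the meiotic kleisin REC8, 0.63, which did not pass the test (group means of 0.196 and 0.391 FPKM) and became -0.27 with quantile normalization. The meiotic subunits SMC1B and RAD21L1 were below the filter on low values.

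The SMC5/6 complex is the third SMC complex of the cell and acts in DNA repair. Of 10 tested genes, which were its subunits, the associated SLF1 and SLF2, and SMCHD1, 3 fell, 1 rose and 6 did not pass, so that the 30.0% that fell were near the 25.9% of all tested genes. SMC5 was at 5.14 ± 0.135 FPKM in control and 6.21 ± 1.04 after butyrate, and SMC6 at 10.3 ± 0.715 and 8.67 ± 0.678 (SD, n = 3 each). Neither of these ATPases passed the test (limma, Benjamini-Hochberg adjusted p = 0.147 and 0.0728), although SMC5 passed after rescaling and SMC6 after quantile normalization. NSMCE1, a RING-finger subunit, rose from 68.4 ± 2.07 to 171.6 ± 8.61 FPKM (SD, n = 3 each), with a log2 fold change of 1.33 (limma, Benjamini-Hochberg adjusted p = 2.2e-07). SLF1, which brings the complex to DNA damage, had the largest fall of the list at a log2 fold change of -1.22 (limma, Benjamini-Hochberg adjusted p = 0.0112). Its levels were low, at 1.18 ± 0.287 FPKM in control and 0.458 ± 0.180 after butyrate (SD, n = 3 each). With a mean FPKM of at least 1 required, 2 genes of the list fell.

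Of 11 partners of condensin on mitotic chromosomes, 10 (90.9%) fell, against 25.9% of all tested genes, and 9 of them (81.8% of the list) were downregulated DEGs, against 1.51%. The median log2 fold change of this list was -3.63, beside 0.10 over all tested genes. TOP2A, the DNA topoisomerase that untangles sister chromatids, fell from 23.1 ± 1.04 to 1.11 ± 0.0862 FPKM (SD, n = 3 each), with a log2 fold change of -4.26, whereas its paralog TOP2B went from 9.53 ± 2.48 to 6.71 ± 0.983 FPKM (SD, n = 3 each) and did not pass the test (limma, Benjamini-Hochberg adjusted p = 0.0614). TOP2B did pass, as lower, with quantile normalization (adjusted p = 0.0329), with the replicate block, with a mean FPKM of at least 1 required, and without control replicate 2. The kinases CDK1, PLK1 and AURKB, which phosphorylate mitotic proteins, had log2 fold changes of -3.62, -5.40 and -3.60. KIF4A, a motor that works with condensin on the chromosome axis, and MKI67, which coats mitotic chromosomes, were at -3.93 and -4.37. BIRC5, CDCA8 and INCENP, which carry AURKB, were at -4.48, -3.63 and -2.59. MCPH1, an inhibitor of condensin II, fell with a log2 fold change of -0.64 and was no DEG (limma, Benjamini-Hochberg adjusted p = 0.0063). The part of the number of dividing cells in the fall of the condensin subunits was not tested.

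**Figure D4:**
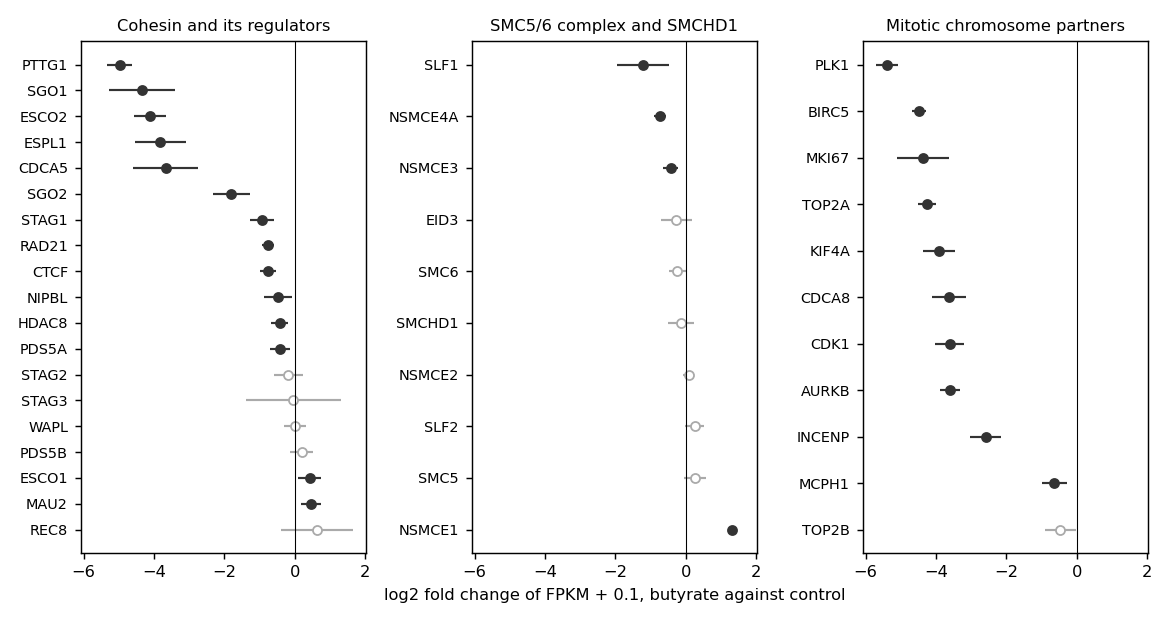
Points are log2 fold changes on FPKM + 0.1 with 95% confidence intervals from limma for the tested genes of the 3 lists, filled where the Benjamini-Hochberg adjusted p was under 0.05. In the cohesin list PTTG1, SGO1, ESCO2, ESPL1 and CDCA5 lie between -4.98 and -3.67 and the core subunits RAD21 and STAG1 between -0.93 and -0.77, while most of the SMC5/6 list lies near 0.

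The named genes whose values over the 6 cultures were most like those of the condensin I kleisin NCAPH, by the root-mean-square distance of log2(FPKM + 0.1), were EVI2A at 0.18, ESCO2 at 0.19, MTFR2 at 0.22, KIF4A at 0.25 and SMC2 at 0.27. This likeness covers both level and change, and it rests on 2 groups of 3 cultures.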

How the data were processed

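Expression was measured by RNA sequencing in 3 butyrate and 3 control cultures. The authors trimmed reads with Trim Galore 0.4.1, aligned them with STAR, kept uniquely mapped reads and ran Cufflinks, whose FPKM for each gene, with confidence bounds, are the deposited values. UMD3.1 is the build in the submitters' processing notes, and coordinates are those of the files, 1-based. Whether counting used strand is not given in the sources used here. Sequence identifiers were translated to chromosomes by the chromosome that most shared symbols have in the RefSeq table of ARS-UCD2.0, which supplied names and gene spans only.

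Rows were joined by position, and 2 genes with a failed estimate were removed. FPKM values are not counts, so limma 3.58.1 (R 4.3.3) was fitted to log2(FPKM + 0.1) of 15813 genes, letting the variance follow the mean. Exact permutation tests used scipy 1.17.1. Library depth was not analysed here, and the bounds, read as 2 standard deviations of a count, imply between 5756609 and 6186809 effective fragments per culture. They cover estimation error only.

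The members and lists were chosen with earlier results of these data known. Named are the members, list genes that were DEGs, each list's largest rise and fall, marker sums and the 5 profiles nearest to NCAPH; other list genes were named after their values were seen. Older symbols were used for SGO1 and SGO2. Alternatives were other pseudocounts, filters, scalings, the trend, fold limits, the replicate block and each culture left out. Protein and promoter sequences were not analysed here.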

Additional observations from a re-analysis of the deposited data

How the results depend on the processing

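The 10 member rows that fell did so at the Benjamini-Hochberg threshold under each alternative that was fitted, and SMC3 passed it under none of them. The number of member rows that were downregulated DEGs, 7 with the short NCAPD2 entry included, ranged from 5 to 6 with 1 replicate left out. When the 12083 rows at 0 in all cultures were kept in the fit, an alternative chosen after seeing the data, it was 0 in limma, although 10 rows still fell, and the DEGs among all genes numbered 50 down and 47 up. The cause was not tested. Downregulated DEGs among all genes, 238, were 141 without the trend and 683 at a fold limit of 1 on the log2 scale, and leaving out 1 replicate gave 122 to 159. Upregulated DEGs, 389, were 213 without a filter, 213 without the trend, 226 with the replicate block and 715 at the lower fold limit, and leaving out 1 replicate gave 100 to 232. In the cohesin list the genes that rose, 2, were 1 with quantile normalization, 1 with the replicate block and 1 with rows at 0 kept, and 1 to 2 when a replicate was omitted. In the SMC5/6 list the genes that rose, 1, were 4 after rescaling, 2 without the trend and 2 with rows at 0 kept. The log2 fold change of SMC3 lay between -0.042 and 0.099 when a replicate was omitted. The log2 ratio of SMC2 to SMC4, -0.044, became 0.35 with a pseudocount of 1 and lay between -0.28 (without butyrate replicate 2) and 0.18 (without butyrate replicate 3). The causes were not tested. Deviations of same-numbered cultures correlated across genes at 0.0228, -0.0043 and 0.0018, so the numbers were not taken to pair the cultures. With the replicate block, 5 member rows were downregulated DEGs, NCAPD3 and SMC1A no longer being called, and the ratio tests, with 3 pairs, cannot give a small p. With a pseudocount of 1, the log2 fold changes of NCAPH, NCAPG2, NCAPD3 and SMC2 were -2.61, -2.78, -2.15 and -2.38. Few effective fragments limit the butyrate levels of these 4 genes.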
